A study of Arabidopsis thaliana with 2 samples.

Results

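FTM1 (AT1G43800) and its relatives form the acyl carrier protein desaturase family of Arabidopsis thaliana, taken here as the 7 loci FTM1, SSI2 (AT2G43710), AAD1 (AT5G16240), AAD2 (AT3G02610), AAD3 (AT5G16230), AAD4 (AT3G02620) and AAD5 (AT3G02630). Members were found by locus among the 25665 loci named on an Agilent array read in a pair of colours, and each of the 7 had 1 probe. FTM1 was chosen by its measured log2 ratio, which is low in the comparison described here, so its values are a description with no test. The other 6 genes were taken because they encode the same kind of enzyme. The study compared inflorescence stems of sgr1 with those of wild type (Columbia) on 2 arrays of 1 slide, each carrying both genotypes. Stem segments 1.5 cm long, labelled as elongation zone, were cut 0.3 to 1.8 cm below the apex from stems 5 to 8 cm tall, freed of lateral organs, and at least 10 plants went into each RNA sample. The plants of both genotypes grew at 23 °C in constant light, and the labels also give 3 days of cold and 10 days on plates. On array 1 sgr1 carried Cy3 and wild type Cy5, and on array 2 the dyes were swapped. The design text speaks of 2 biological replicates and the sample descriptions of 1, so the spread between these arrays may be technical. The limma p-values below measure only that spread, mostly as pooled over all genes (47.7 prior degrees of freedom) and little a gene's own (1 residual). A gene whose 2 arrays differ widely can therefore be called.

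The sgr1 (shoot gravitropism 1) mutant is defective in SCARECROW (SCR), a transcription factor needed to form the endodermis, and SCR itself fell in sgr1 (log2 ratio of sgr1 over wild type -0.81 on array 1, -1.16 on array 2). The sources used here do not give the allele or where the probe lies relative to the lesion, so SCR is not a full check of the genotype labels. Stem tissue markers were measured in both genotypes: all 5 xylem and fibre markers, all 3 phloem markers and all 5 epidermis markers passed the filter on dim probes. Of 4 floral organ markers, SEP3 passed (-0.04), and none of 4 seed markers did. Of 5 genes listed as endodermis markers and tested, 4 fell in sgr1, against 8.98% of all genes called lower (adjusted p under 0.05 by limma). MYB36, also listed, did not pass the filter on dim probes. The median of the 5 was -0.66. SCR, the gene defective in sgr1, is 1 of these 4, so the count is not independent of the genotype. The others were SGR5 (-1.02), EN7 (-0.66) and SHR (-0.53). Whether the transcript of each, SHR among them, lies in endodermal cells of these stems was not tested. CASP1 (-0.04) was not called, and its spot was not well above background in sgr1 on array 1 or in wild type on array 2. In these bulk stems, fewer cells of a type and less RNA per cell cannot be told apart, and the part of these lower endodermis markers' tissue in the values below was not tested.

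Acyl carrier protein desaturases are soluble enzymes of the plastid. They put a double bond into a saturated fatty acid while it is still bound to acyl carrier protein, and draw the electrons from ferredoxin. The main product, oleate, is the start of most unsaturated membrane lipids, of storage oil and of part of the cuticle. SSI2, also known as FAB2, is the main stearoyl desaturase of leaves, and its loss gives dwarf plants with constant salicylic acid responses. AAD1 and AAD5 act beside it in seeds. AAD2 and AAD3 prefer palmitoyl substrate and serve the omega-7 fatty acids of the endosperm. FTM1, named FLORAL TRANSITION AT THE MERISTEM1, is known as a gene induced in the shoot apex at the floral transition and as a gene induced by low oxygen.

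Ratios below are log2 of sgr1 over wild type after background correction and loess normalization, given per array or as mean ± SD (n = 2). A gene is called where limma's adjusted p (Benjamini-Hochberg over all genes tested) lies below 0.05. Of the 7 members, 5 passed the filter that asks for a signal well above background in at least 1 channel of each array. FTM1, chosen for its low ratio, was 5.27-fold lower in sgr1, while the 4 other measured members differed by at most 1.26-fold. The contrast between them follows in part from that choice. None of these 4 was called, against 18.9% of all 19059 genes tested. With so few genes this count does not set the family apart. Of the 4, AAD1 alone lay below an unadjusted p of 0.05.

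FTM1 gave -2.18 on array 1 and -2.62 on array 2 (log2 ratio, -2.40 ± 0.313). Both arrays thus showed sgr1 below wild type, in either dye orientation. The normalized log2 intensity of its probe was 6.86 and 6.13 in sgr1, against 9.04 and 8.75 in wild type on arrays 1 and 2. Both sgr1 values lay below both wild type values, as the choice of the gene by its ratio implies. In sgr1 the spot was well above background on array 2 and not on array 1, and in wild type it was well above background on both.

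Before normalization the FTM1 spot lay close to its local background in sgr1. After subtraction of the local background, the FTM1 spot held 16.4 intensity units of Cy3 on array 1 and 48 of Cy5 on array 2 in sgr1, against 764 of Cy5 on array 1 and 228 of Cy3 on array 2 in wild type. These units are compared only within a dye. For Cy3 that sets 16.4 in sgr1 beside 228 in wild type, and for Cy5 48 in sgr1 beside 764 in wild type. The intensities processed by the scanner software, which are adjusted for dye, were 39.7 and 39.1 in sgr1, against 854 and 852 in wild type. In each genotype the arrays lay close together, and their mean ratio was -4.43 on the log2 scale.

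The size of the FTM1 ratio therefore depends on how a near-background signal is handled. It was 5.27-fold in the main setting, which adds an offset of 50 units to every corrected signal, 8.32-fold with an offset of 16, and 21.6-fold in the scanner software's log ratios. The direction was the same in all of them. When both channels had to be well above background, FTM1 left the comparison.

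**Figure D1:**
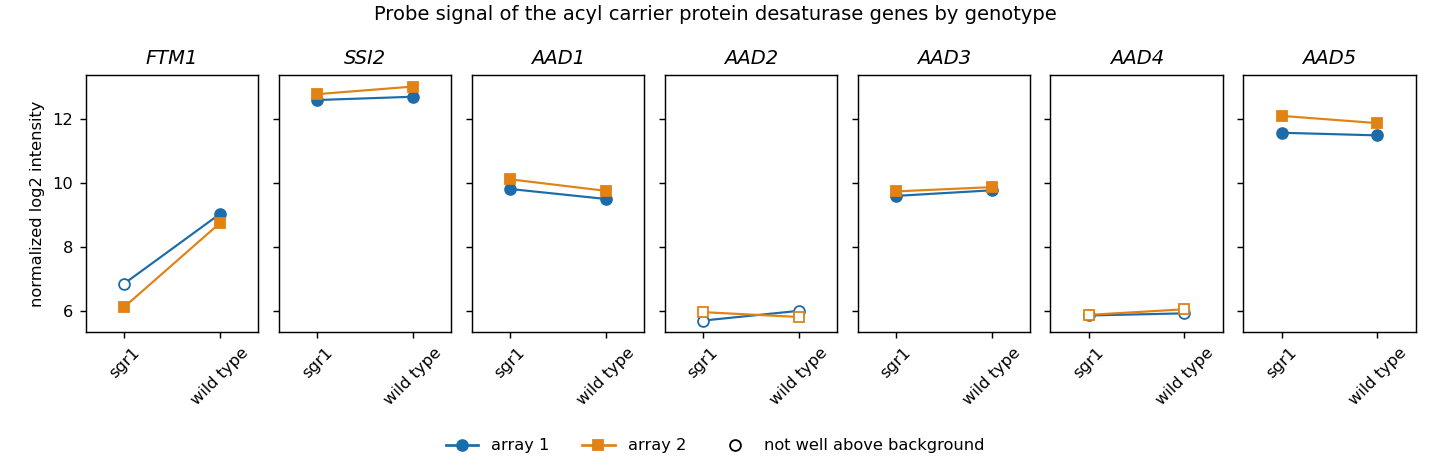
Normalized log2 intensity (vertical axis) of the probe of each desaturase gene in sgr1 and wild type, with circles for array 1, squares for array 2 and open symbols for spots not well above background. Lines join the genotypes of an array; FTM1 lies lower in sgr1 (6.86 and 6.13) than in wild type (9.04 and 8.75), AAD2 and AAD4 are open in all channels, and levels of different probes cannot be compared.

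FTM1 ranked 13 from the lowest ratio among the 19059 genes, and its rank moved with the handling of dim signals, to 6 with an offset of 16 and 4 in the software's log ratios. Its mean brightness lay at percentile 18.5, in the dim part of the array. Of the 1877 other genes whose mean brightness was within 0.5 log2 units of it, none had a ratio as low as FTM1 or as high in the opposite direction, and their ratios ran between -2.28 and 2.14. The arrays differed by 0.44 for FTM1, against a median difference of 0.213 in those genes, of which 15.5% differed by more. These values describe why the gene was picked and are not a test of it.

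SSI2, the main stearoyl desaturase, gave log2 ratios of -0.10 and -0.24. Its normalized log2 intensity was 12.59 and 12.78 in sgr1, against 12.69 and 13.01 in wild type. The genotypes overlapped over the arrays, and sgr1 was the lower channel on each. Intensities were not normalized between arrays. Overlap over the arrays, or its lack, here and below therefore does not measure the difference within an array. The mean of -0.17 ± 0.0951 was not called (adjusted p = 0.456 by limma), and its 95% interval ran between -0.45 and 0.11. As a ratio of sgr1 over wild type the interval spans 0.733 to 1.08.

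The stearoyl enzymes known from seeds, AAD1 and AAD5, had ratios above 0. AAD1 had ratios of 0.31 on array 1 and 0.36 on array 2, with normalized log2 intensities of 9.82 and 10.12 in sgr1 against 9.51 and 9.76 in wild type. The genotypes did not overlap over the arrays. Its mean of 0.34 ± 0.0333 had an unadjusted p of 0.0193 and an adjusted p of 0.0844 by limma, and was not called. The 95% interval of AAD1, not adjusted for the number of genes, lay between 0.06 and 0.61. AAD5 had normalized log2 intensities of 11.57 and 12.10 in sgr1 against 11.49 and 11.87 in wild type, which overlapped over the arrays. Its ratios were 0.08 on array 1 and 0.23 on array 2, with a mean of 0.15 ± 0.102 (limma adjusted p = 0.509, interval -0.13 to 0.43). Both arrays put sgr1 above wild type for AAD1 and AAD5, and neither difference passed the test.

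AAD3, a palmitoyl desaturase, had ratios of -0.17 on array 1 and -0.13 on array 2. Its normalized log2 intensity was 9.60 and 9.74 in sgr1, against 9.78 and 9.87 in wild type, with no overlap. The mean of -0.15 ± 0.0291 was not called (limma adjusted p = 0.508, interval -0.43 to 0.12). AAD3 and AAD1 are direct neighbours on chromosome 5 in the TAIR10.1 gene order, and after loess their ratios had opposite signs on both arrays. With median centring they shared a sign on each array, at 1.22 for AAD1 and 0.71 for AAD3 on array 2 and -0.52 and -1.01 on array 1. SSI2 and AAD5 had the same signs in that setting, so the shared sign is not particular to these neighbours.

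AAD2 and AAD4 were not well above background in either genotype on either array. After subtraction of the local background, the AAD2 spot held between -7.1 and 8.4 intensity units over the 4 channels, and the AAD4 spot between -1.1 and 6.8. The scanner software replaced all 8 of these signals by surrogate values, and no ratio is given. AAD2, AAD4 and AAD5 lie in a row in this order on chromosome 3, and of the 3 AAD5 alone was measured. Probe sequences were not used here, and whether a probe also takes up transcripts of other family members was not tested.

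**Figure D2:**
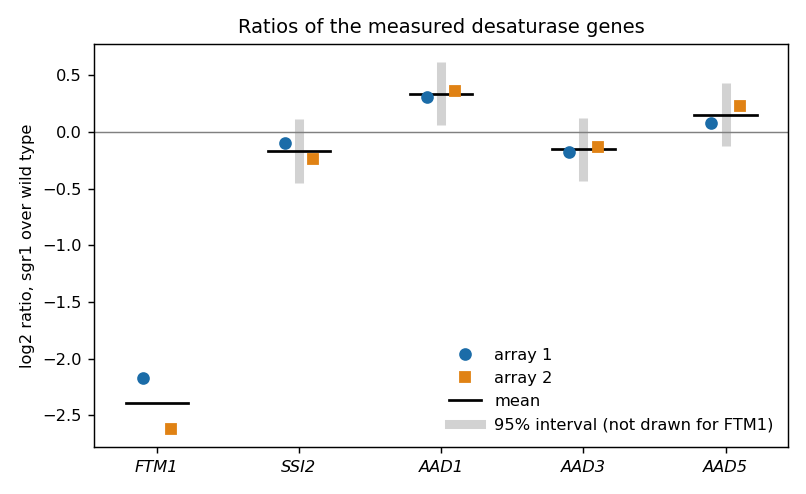
Log2 ratio of sgr1 over wild type (vertical axis) for the 5 measured desaturase genes, with a circle for array 1, a square for array 2 and a line for the mean; grey bars are limma's 95% intervals, not drawn for FTM1. FTM1 lies at -2.40, and the other 4 genes lie between -0.17 and 0.34.

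The 5 genes outside the family with pairs of ratios most like that of FTM1 were found by the distance between log2 ratios over the 2 arrays. They were EXT3, an extensin of the cell wall (mean -2.33, distance 0.178), and WRKY53, a transcription factor of senescence and defence (arrays 1 and 2 at -2.13 and -2.39, distance 0.235). The others were AT1G19960, described in the file as an expressed protein (-2.41 and -2.56, distance 0.244), MSRB9, a methionine sulfoxide reductase (-2.23 and -2.32, distance 0.30), and AT3G04210, described as a disease resistance protein (-2.38 and -2.37, distance 0.32). In sgr1 all 5 were well above background on both arrays, unlike FTM1. With 2 arrays such likeness is a description of size and sign only.

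**Figure D3:**
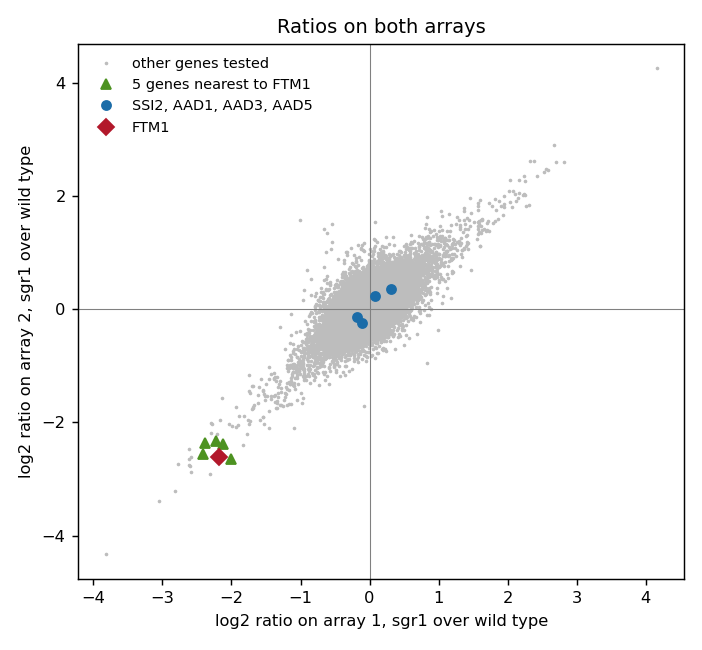
Log2 ratio of sgr1 over wild type on array 1 (horizontal axis) and array 2 (vertical axis) for the genes tested, with FTM1 as a diamond, the 4 other measured desaturases as circles and the 5 genes nearest to FTM1 as triangles. FTM1 lies at -2.18 and -2.62, far from the other desaturases near the origin.

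Few of the genes that act before the desaturase step were called. The plastid acyl carrier proteins hold the growing chain and present it to the desaturase. The 7 measured also include the mitochondrial MTACP1, MTACP2 and MTACP3. None of the 7 was called by limma, against 18.9% of all genes, and 2 had an unadjusted p under 0.05. Their median was -0.12, which is the value of MTACP1, against 0.0048 over all genes. Among the plastid forms, ACP2 had -0.17. ACP3 (-0.32 ± 0.0723) and the mitochondrial MTACP3 (-0.32 ± 0.117) were the lowest, and ACP1 (0.22 ± 0.124) and ACP4 (0.18 ± 0.0424) the highest. The fifth plastid form, ACP5, did not pass the filter on dim probes.

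Of 21 genes for the supply of acetyl-CoA and malonyl-CoA and the fatty acid synthase of the plastid, all were measured, 1 rose and none fell, against 9.92% of all genes called higher and 8.98% called lower, with a median of 0.02. The gene that rose was BCCP2, a biotin carrier subunit of acetyl-CoA carboxylase (0.54 ± 0.0919, limma adjusted p = 0.00330). KASI, which extends most of the chain, had 0.11 and MOD1, the enoyl reductase, 0.03. FAB1, the condensing enzyme that makes stearoyl from palmitoyl chains and so feeds the desaturase, had -0.28 on array 1 and 0.32 on array 2, and its sign changed with the arrays. LPD2, a subunit of plastid pyruvate dehydrogenase, was not called at 0.40, with -0.00295 on array 1 and 0.81 on array 2.

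Among ferredoxins and their reductases, which pass electrons to the desaturases, 2 of 7 rose and none fell, against 9.92% of all genes called higher and 8.98% called lower, with a median of 0.25. These were the leaf-type reductases LFNR2 (0.19 on array 1 and 1.02 on array 2) and LFNR1 (0.20 and 0.59, limma adjusted p = 0.0403). The arrays differed widely in this list. FD2, the main leaf ferredoxin, had -0.32 on array 1 and 0.95 on array 2 and was not called. FD3 (-0.26), RFNR1 (0.03) and RFNR2 (0.13), the forms of non-green tissue, were not called either, nor was FD1 (0.25).

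Downstream of the desaturases, thioesterases release oleate from its carrier and acyl-CoA synthetases and acyltransferases pass it on. Of 11 genes listed around these steps, not all specific to oleate, 3 rose and none fell (all genes: 9.92% higher, 8.98% lower), with a median of 0.07. LACS1 (0.58 ± 0.0954) and LACS2 (0.58 ± 0.111), acyl-CoA synthetases of wax and cutin synthesis, rose 1.50-fold and 1.49-fold, and FATB, the thioesterase for saturated chains, rose by 0.40 ± 0.333. FATA1 (0.35) and FATA2 (0.33), the thioesterases that prefer oleate, were not called (limma adjusted p = 0.0703 and 0.0888). ATS1 (-0.04) and GLY1 (-0.01), whose loss restores oleate in ssi2 mutants, were not called. Of 5 epidermis markers, CER5 (0.70) and CER6 (0.53), which act in wax export and synthesis, rose and PDF1 (-0.69) fell, and the part of epidermal tissue in these values was not tested.

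Membrane-bound desaturases act on fatty acids already in lipids. Of 8 measured, 3 rose and 1 fell, against 9.92% of all genes called higher and 8.98% called lower, with a median of 0.28. FAD4, which makes the trans double bond of plastid phosphatidylglycerol, rose most (0.74 ± 0.179, limma adjusted p = 6.74e-05). FAD7 (0.41 ± 0.336) and FAD5 (0.39 ± 0.0948) are plastid enzymes and also rose. ADS2, a desaturase linked to cold, fell (-0.40 ± 0.274). FAD2, the oleate desaturase of the endoplasmic reticulum, had -0.16 on array 1 and 0.65 on array 2 and was not called.

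Of 7 regulators of fatty acid genes, 3 passed the filter on dim probes. WRI1, an activator of plastid fatty acid synthesis in seeds, fell (-0.17 on array 1 and -0.84 on array 2), and its relative WRI3 rose (0.61 ± 0.0389). WRI4, a regulator of stem wax synthesis, was not called (-0.19). MYB115 and MYB118, which activate AAD2 and AAD3 in the endosperm, and the seed regulators LEC2 and FUS3 did not pass the filter. The calls in these pathway lists were sensitive to the processing. In the log ratios of the scanner software FAD4 alone stayed called among them, and with median centring in place of loess none did. Over 9 alternative settings LFNR1 lost its call in 5, FATB and ADS2 in 4 each, and FAD5 and FAD7 in 3 each.

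FTM1 is also known from low oxygen and from flowering. Of 12 low oxygen response genes, 9 fell and none rose in sgr1, against 8.98% of all genes called lower, and the list median was -0.89. PCO1 (-1.85 ± 0.405) and PCO2 (-1.84 ± 0.144), the oxidases that mark oxygen-sensing factors for breakdown, LBD41 (-1.63 ± 0.0334) and HRA1 (-1.63 ± 0.236) fell most. PDC1 (-1.29) and ADH1 (-0.88), of ethanol fermentation, fell too. For PDC1 the size was 2.45-fold in the main setting and 5.01-fold in the software's log ratios. At least 2-fold lower on both arrays were 5 of the 12, against 0.75% of all genes, and none was 2-fold higher on both, against 0.777% (1.53% in either direction). SUS4 (-0.29), PFK6 (-0.37) and HRE1 (0.02) were not called, and HRE2 did not pass the filter on dim probes. This list was chosen with these ratios known, so its direction is not independent evidence.

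Of 10 floral transition genes, 3 rose and 1 fell (all genes: 9.92% higher, 8.98% lower), with a median of 0.13. AP1 (0.61 ± 0.187), SPL5 (0.58 ± 0.424) and SOC1 (0.38 ± 0.00911, limma adjusted p = 0.0482) rose, and SPL3, which promotes flowering, fell (-0.74 ± 0.164). The size of the AP1 ratio depended on the processing, with 1.53-fold in the main setting, 1.93-fold with an offset of 16 and 3.17-fold in the software's log ratios. When ratios were taken from the scanner software, SPL5, SOC1 and, in the low oxygen list, SUS1 lost their calls. With median centring in place of loess every call in both lists ended, while mean ratios stayed near those after loess for PCO1 (-1.84), LBD41 (-1.64) and SPL3 (-0.76) and their SDs between arrays grew to 1.66, 1.11 and 1.39. FUL (0.16) and AGL24 (-0.07) were not called, and FT and LFY did not pass the filter.

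**Figure D4:**
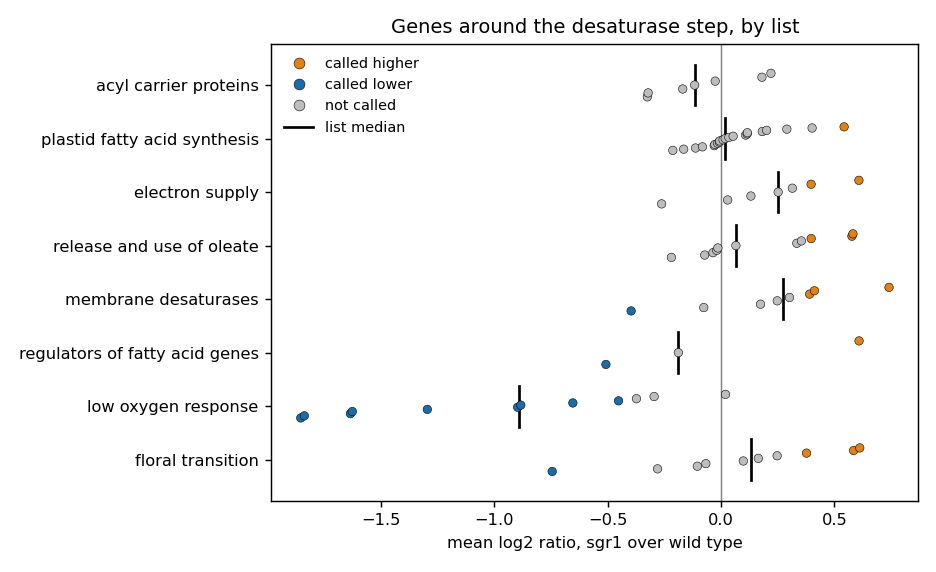
Mean log2 ratio of sgr1 over wild type (horizontal axis) of the genes in each list around the desaturase step, with called genes coloured and a vertical line at each list median. The low oxygen response genes extend to -1.85, while the 21 genes of plastid fatty acid synthesis lie between -0.21 and 0.54.

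The mean ratios of the 4 desaturases other than FTM1 kept their signs under every processing setting that was run, and none was called under any. On single arrays this did not hold: with median centring each of the 4 was below 0 on array 1 and above 0 on array 2, with -1.16 and 0.80 for SSI2 and -0.91 and 1.22 for AAD5. Every measured acyl carrier protein had these signs too, such as ACP4 (-1.09 and 1.37), so they are not particular to the desaturases. The dyes were swapped between the arrays, and the part of a dye shift in these signs was not tested. Over the processing settings the mean ratio of SSI2 ran between -0.19 and -0.17 and that of AAD1 between 0.33 and 0.36. That of AAD3 ran between -0.20 and -0.15, and that of AAD5 between 0.15 and 0.18. FTM1 ran between -4.43 and -2.39.

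**Figure D5:**
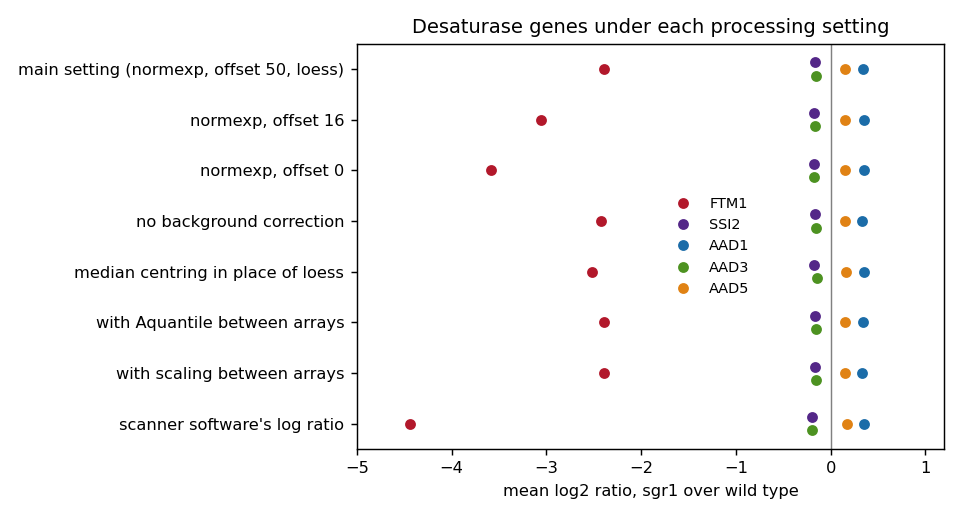
Mean log2 ratio of sgr1 over wild type (horizontal axis) of the 5 measured desaturase genes under settings of background, normalization and starting values (rows). Settings of filter and variance model are not drawn. FTM1 shifts between -4.43 and -2.39, while the other 4 genes stay between -0.20 and 0.36; the points of SSI2 and AAD3 are set slightly apart vertically.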

How the data were processed

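Per the file headers, the deposited scanner files come from Agilent Feature Extraction 9.1.3.1 and hold for each spot and dye a mean intensity, a local background intensity and a processed intensity, with a log10 ratio of Cy5 over Cy3. The deposited value table holds the same log10 ratio (0 of 39102 rows differed by over 1e-06), not turned for the dye swap. Genome build: not given in the sources used here. Each spot's mean and background intensity were corrected by normexp (offset 50) and normalized by loess within arrays in limma 3.58.1 under R 4.3.3. The sign of array 1 was turned, so that ratios read sgr1 over wild type. Outlier spots were left out (96 and 177), and a probe entered the test when, on each array, either channel was well above background, which left 19059 genes. Probes of a gene were averaged. Each ratio was tested against 0 (lmFit, eBayes, 1 residual and 47.7 prior degrees of freedom). Between 59.2% and 66.5% of spots were well above background per channel, and none was saturated. With 2 arrays precision is limited by their number. The procedure was run on simulated arrays with independent noise of the same SD for every gene. That setting does not cover arrays from a shared biological sample or genes whose arrays differ widely. The named genes were the members, up to 4 called genes with the largest changes per list, the acyl carrier protein and electron supply genes, and the 5 genes nearest to FTM1. Other genes were named after their values were seen. Members and lists were chosen with earlier results of these data known. Alternatives covered background, normalization, filter, variance model, starting values and replicates. Gene order came from a TAIR10.1 table.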

Additional observations from a re-analysis of the deposited data

How the results depend on the processing

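The FTM1 ratio was -3.06 with a normexp offset of 16, -3.59 with an offset of 0 (an alternative chosen after seeing the data) and -4.43 from the log ratios of the scanner software, against -2.40. The offset is added to signals that in sgr1 were themselves below 50 units, so a larger offset pulls the ratio towards 0. With both channels required well above background FTM1 has no value. Leaving out an array gave -2.62 to -2.18 for FTM1, -0.24 to -0.10 for SSI2, 0.31 to 0.36 for AAD1, -0.17 to -0.13 for AAD3 and 0.08 to 0.23 for AAD5, as values with no test, and 375 to 481 genes that differed 2-fold or more, the higher count without replicate 1. Median centring gave 2 calls over all genes, 115 genes past 2-fold on both arrays and 0 called list genes, against 3602, 291 and 25. The software's log ratios gave 1952, 705 and 11. Under median centring the ratio of CAC2 was -0.014, and under the software's log ratios those of CAC2, MCAT and FAB1 were -0.012, 0.011 and -0.021, each opposite in sign to the main setting and not called. The cause of these shifts was not tested. Of the 25 called list genes, 5 lost the call with an offset of 16, 4 without the filter on dim probes, 2 with trend and robust eBayes and 1 with both channels required above background. LPD2 and PFK6, not called in the main setting, were called under 2 settings each. No further pairing was added, because each array holds both genotypes and its 1 ratio is already paired within the array. Signal over background limits FTM1 in sgr1 and leaves AAD2 and AAD4 unmeasured.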

Other observations

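The genes that flank the desaturase loci in the TAIR10.1 gene order, up to 3 on each side, gave 15 measured genes outside the family. Of these, 1 was called by limma, against 18.9% of all genes: AT5G16200, which lies 3 genes from AAD3, at -0.51. The direct neighbour of FTM1, TED6, a gene of xylem vessel differentiation, had log2 ratios of sgr1 over wild type of 0.03 on array 1 and -0.02 on array 2. The other measured gene near FTM1, AT1G43770, had -0.00717 and 0.42 and was not called.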
